A study of Mus musculus with 18 samples.

Results

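The 10 genes described here encode 7 matrix metalloproteinases, Mmp2, Mmp8, Mmp9, Mmp12, Mmp13, Mmp14 and Mmp19, and 3 tissue inhibitors of metalloproteinases, Timp1, Timp2 and Timp3. They were taken by name from the 38887 genes of the library tables, and each matched a single gene ID. RNA-Seq libraries had been made from bone marrow-derived macrophages (BMMs) of female C57BL/6J mice, grown with 50 ng/ml M-CSF for 6 days, with 3 libraries in each of 6 groups. WT, GILZ KO and GILZ TG cells were either left untreated or exposed for 4 h to 100 ng/ml LPS, a bacterial cell wall component that activates macrophages through TLR4. GILZ, encoded by Tsc22d3, is a glucocorticoid-induced regulator of inflammation. In the study's description, WT mice carried Cre recombinase in the Lyz2 locus without any other change, GILZ KO mice added loxP sites around exon 6 of Tsc22d3, and GILZ TG mice added a Tsc22d3 cDNA in the ROSA26 locus behind a stop cassette that Cre removes. Cre from the Lyz2 locus acts in the myeloid lineage, so both changes were confined to myeloid cells by design, and ages were matched within experimental sets. The labels do not say whether libraries with the same number came from one mouse, and p-values measure the spread between these libraries.

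Metalloproteinases are zinc enzymes that cut collagens, elastin, proteoglycans and many cell surface and secreted proteins. Most are made as inactive precursors and are secreted, whereas Mmp14 (also MT1-MMP) stays in the membrane and activates proMmp2 there together with Timp2. TIMPs bind the active enzymes and block them. Macrophages are a main source of Mmp12 (macrophage elastase) and Mmp9 (gelatinase B), and they add Mmp13 (collagenase 3) and Mmp14 when stimulated, while Mmp8 (neutrophil collagenase) and Mmp2 (gelatinase A) are better known from neutrophils and stromal cells.

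Between 14583055 and 38557029 reads per library were assigned to genes. Tsc22d3 was measured at 14.9 to 18.8 TPM (transcript abundance scaled for transcript length and library size) in untreated WT libraries, 1.89 to 2.81 in GILZ KO and 152 to 159.8 in GILZ TG. Tsc22d3 fell with LPS in WT (log2 fold change -1.10 ± 0.12). In GILZ KO it rose (0.92 ± 0.18, edgeR, adjusted p = 0.000186), with a TPM ratio of 1.25 and overlapping groups. With both changes, GILZ KO against WT was -2.74 ± 0.14 untreated (edgeR, adjusted p = 2.16e-05) but only -0.69 ± 0.14 with LPS (0.15). The ratios of mean TPM were 0.14 and 0.57. Although all 3 genotypes carry Cre in this description, Lyz2, the locus that holds it, stood at 11048 to 15401 TPM in untreated WT libraries but at 26.7 to 45.8 in GILZ KO and 17.2 to 53.1 in GILZ TG, so that a difference in Lyz2 and a difference in GILZ cannot be told apart in contrasts with WT, whereas GILZ KO and GILZ TG were alike in this respect. The macrophage markers Adgre1, Csf1r and Cd68 were all above 430 TPM (at least 434, 442 and 1019) in every library. GILZ TG libraries 1 and 2, untreated and with LPS, held more transcripts of other cell types than the WT and GILZ KO libraries. Their summed level of 16 stromal fibroblast markers was 143 to 209 TPM against 8.49 to 37.9, of 12 neutrophil lineage markers 204 to 609.9 against 25.9 to 67.3 untreated and 94.0 to 148 with LPS, and of 8 B cell and plasma cell markers 81.8 to 158 against 31.0 to 35.5 and 16.9 to 22.7. GILZ TG library 3 was within the stromal range, at 17.6 TPM untreated and 18.2 with LPS. Its neutrophil lineage sum was 75.1 and 146, above WT and GILZ KO in untreated cells, and its B cell and plasma cell sum was 36.1 and 26.1, above them at both treatments. The immunoglobulin transcript Igkc was at least 11.4 TPM in untreated and 7.28 with LPS in every GILZ TG library, against at most 2.22 in WT and GILZ KO. In the GILZ TG libraries, Col1a1 reached 51.3 TPM, Postn 5.43 and Ngp 88.3, while Pdgfra reached 0.41 TPM (0.04 to 0.08 in WT), Thy1 0.15 and Ly6g 0.24, and all 6 T cell markers together did not pass 0.92 TPM. Endothelial markers summed to 18.4 to 40.9 TPM and osteoclast markers to 39.9 to 98.7 TPM over all libraries, and 6 of the 7 osteoblast markers were at or below 2.44 TPM, the remaining one being Spp1, which macrophages make. In such bulk samples, fewer cells of a type and less RNA per cell cannot be told apart.

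Mmp13, Mmp12 and Mmp8 lie in a cluster of 10 metalloproteinase genes within 427 kb of chromosome 9 (GRCm38, 7272514 to 7699585), in the order Mmp13, Mmp12, Mmp1b, Mmp3, Mmp1a, Mmp10, Mmp8, Mmp27, Mmp20 and Mmp7. RefSeq promoter windows of build GRCm38 were matched for 7 of the 10 members, Mmp8, Mmp12, Mmp13, Mmp14, Timp1, Timp2 and Timp3. The 250 bases before the transcript start are given here for Mmp13 and Mmp14, which had the largest increases with LPS, and for the 2 annotated starts of Mmp12, the member that differed most clearly between genotypes. All 4 windows are on the plus strand, at chr9:7272264-7272513 for Mmp13, chr14:54431348-54431597 for Mmp14, and chr9:7344147-7344396 and chr9:7347124-7347373 for Mmp12. Capitals mark matches, on either strand, to the AP-1 motif TGANTCA, the TATA box TATAAA, the GC box GGGCGG and the NF-kB motif.
Mmp13: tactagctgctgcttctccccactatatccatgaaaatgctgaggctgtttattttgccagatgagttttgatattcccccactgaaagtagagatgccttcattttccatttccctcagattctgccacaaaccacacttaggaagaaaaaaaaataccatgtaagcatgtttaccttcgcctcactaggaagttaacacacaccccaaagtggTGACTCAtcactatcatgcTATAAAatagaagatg
Mmp14: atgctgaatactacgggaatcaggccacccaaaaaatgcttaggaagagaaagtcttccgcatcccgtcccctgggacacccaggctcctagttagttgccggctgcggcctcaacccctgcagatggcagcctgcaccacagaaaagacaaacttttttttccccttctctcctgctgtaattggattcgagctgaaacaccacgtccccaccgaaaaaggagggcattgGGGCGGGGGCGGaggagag
Mmp12, the upstream start: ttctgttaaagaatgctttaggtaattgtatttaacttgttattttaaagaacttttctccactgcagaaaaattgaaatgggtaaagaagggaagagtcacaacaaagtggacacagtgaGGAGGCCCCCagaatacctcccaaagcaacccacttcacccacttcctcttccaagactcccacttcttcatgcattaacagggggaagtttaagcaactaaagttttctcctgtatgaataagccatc
Mmp12, the downstream start: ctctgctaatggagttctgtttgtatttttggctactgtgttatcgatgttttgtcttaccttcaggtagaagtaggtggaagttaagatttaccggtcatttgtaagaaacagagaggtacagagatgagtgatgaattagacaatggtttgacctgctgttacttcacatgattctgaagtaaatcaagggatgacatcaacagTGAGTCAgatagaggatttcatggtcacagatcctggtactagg
The Mmp13 window held an AP-1 match (TGACTCA) 35 to 29 bases before the start and a TATA box match 16 to 11 bases before it. AP-1 matches occurred in 6.75% of all 32841 windows of this length and TATA box matches in 12.4%. In the Mmp14 window, 2 adjoining GC box matches lay 19 to 8 bases before the start, a motif found in 32.7% of windows, and there was no match to the other 3 motifs. The downstream start of Mmp12 had an AP-1 match (TGAGTCA) 44 to 38 bases before it, and the upstream start had an NF-kB match on the opposite strand 129 to 120 bases before it, as did 7.25% of windows for this motif. Of the other windows, those of Timp1, Timp2 and Timp3 each held 1 GC box match and that of Mmp8 none of the 4 motifs. The motifs did not overlap one another, and a match describes letters only, not binding.

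Mmp12 was the most abundant member in untreated cells, and together with Mmp9 it made up most of the metalloproteinase transcripts. Of the summed TPM of the 7 enzymes, Mmp12 took 59.8 to 63.2% in WT, 64.7 to 73.6% in GILZ KO and 73.0 to 82.0% in GILZ TG libraries, and Mmp9 took 28.2 to 33.4%, 16.4 to 27.0% and 12.1 to 21.9%. The order of mean levels in untreated WT cells was Mmp12, Mmp9, Timp2, Mmp13, Mmp8, Mmp19, Timp1, Mmp14, Timp3 and Mmp2, from 523 ± 43.1 TPM (SD, n = 3) down to 0.390 ± 0.142. Among neighbours in this order, the ranges of Mmp8 (13.4 to 19.0 TPM) and Mmp19 (11.6 to 14.4), of Timp1 (6.72 to 10.4) and Mmp14 (4.18 to 6.91), and of Timp3 (0.26 to 0.52) and Mmp2 (0.28 to 0.55) overlapped. Timp2 accounted for 82.5 to 94.0% of the 3 inhibitors without treatment and for 67.7 to 84.5% with LPS.

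After 4 h with LPS, Mmp13 replaced Mmp12 as the main transcript. It took 2.23 to 4.96% of the summed metalloproteinase TPM in untreated libraries and 48.2 to 65.3% with LPS, the sum itself going from a range of 706 to 1714 TPM to one of 2493 to 3770.1. The summed TIMP level was 93.6 to 137 TPM without treatment and 61.6 to 120.1 with LPS. Metalloproteinase TPM per TIMP TPM was therefore 6.10 to 12.7 in untreated and 28.3 to 55.4 in LPS libraries, with no overlap between them. These sums carry no test.

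**Figure D1:**
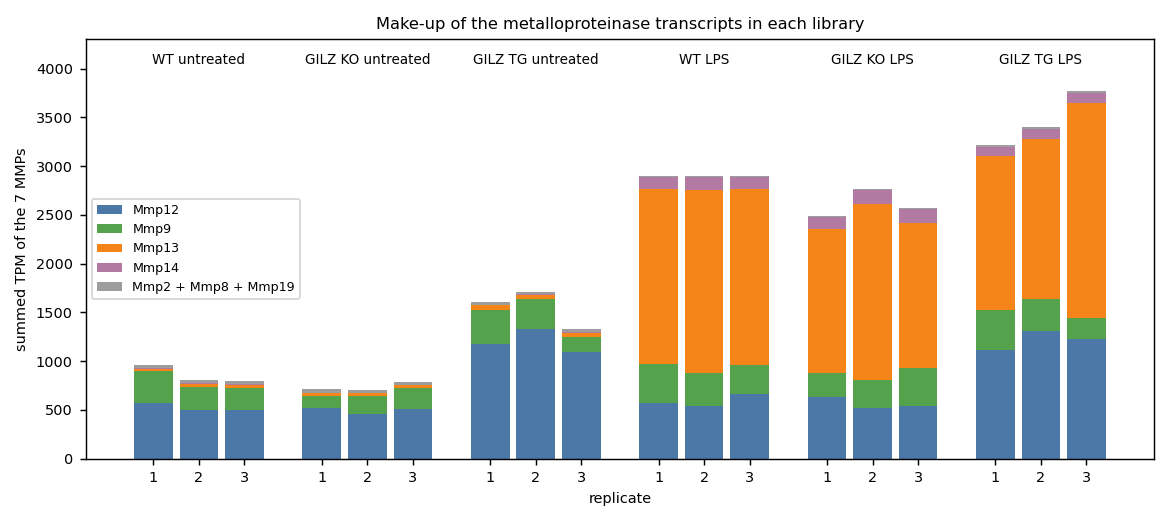
Summed TPM of the 7 metalloproteinases in each of the 18 libraries (y axis, linear from 0; x axis, replicates within the 6 groups), with colours for Mmp12, Mmp9, Mmp13, Mmp14 and the sum of Mmp2, Mmp8 and Mmp19. The Mmp13 share is 2.23 to 4.96% without treatment and 48.2 to 65.3% with LPS, and the Mmp12 part is taller in the GILZ TG libraries than in the others at both treatments.

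The comparison of LPS-treated with untreated cells asked how each genotype responded to the stimulus. At an adjusted p under 0.05, 7 of the 10 members were called in WT, 5 higher and 2 lower, against 68.6% of the 13169 genes tested (33.5% higher, 35.1% lower). In GILZ KO cells 8 were called, 6 higher and 2 lower, against a background of 68.5% (33.2% higher, 35.4% lower), and in GILZ TG cells 6, 5 higher and 1 lower, against 68.7% (33.6% higher, 35.1% lower). The shares of members called were thus near those of all genes, and what set some members apart was the size of the change. The median log2 fold change of the members was 0.87, 1.25 and 0.75 in the 3 genotypes, with -0.02 over all genes in each. All 10 members passed the filter on low counts. TPM did not overlap between LPS and untreated libraries for 4, 9 and 4 members in the 3 genotypes, against 81.2, 83.7 and 80.9% of all genes. The fold changes are on the edgeR scale, where the typical gene is unchanged. On the TPM scale, the median gene moved by -0.62, -0.64 and -0.62 on log2(TPM + 0.1), and the split of calls in WT turned from 4415 higher and 4622 lower into 2119 and 8568, so LPS changes are given relative to the typical gene.

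Mmp13, a collagenase of interstitial collagens, had the largest increase. Its levels in untreated WT libraries 1, 2 and 3 were 30.1, 34.3 and 34.0 TPM, and with LPS 1789, 1881 and 1801. In GILZ KO it went from 35.2, 28.95 and 31.0 to 1469, 1806 and 1486 TPM, and in GILZ TG from 42.2, 38.1 and 43.8 to 1583, 1639 and 2208 TPM. Every LPS library lay far above every untreated one. The log2 fold changes were 6.43 ± 0.17 (SE) in WT, 6.28 ± 0.17 in GILZ KO and 6.09 ± 0.16 in GILZ TG (edgeR quasi-likelihood test, adjusted p at most 2.63e-15), placing Mmp13 at rank 152, 159 and 164 of 13169 genes by fold change.

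Mmp14, the membrane-bound activator of proMmp2, was low at rest and came next in size. In untreated cells it stood at 6.91, 5.49 and 4.18 TPM in WT, 3.64, 5.12 and 4.96 in GILZ KO, and 7.87, 8.90 and 4.46 in GILZ TG. With LPS the values were 121, 125 and 121 in WT, 128, 139.96 and 141 in GILZ KO, and 94.0, 105 and 102 in GILZ TG. The 3 genotypes did not overlap with LPS, GILZ KO being highest and GILZ TG lowest. Among all genes with LPS, 16.3% separated GILZ KO from WT in this way. For GILZ TG and WT the share was 15.2%, and for GILZ KO and GILZ TG 20.6%. Of these Mmp14 differences, only the last was called (edgeR, adjusted p = 0.0141). With LPS, Mmp14 rose by 5.09 ± 0.19, 5.54 ± 0.20 and 4.45 ± 0.18 on the log2 scale (edgeR, adjusted p at most 6.32e-13).

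Mmp19, which cleaves basement membrane proteins, fell in all 3 genotypes. It went from 14.4, 12.9 and 11.6 TPM to 4.07, 3.61 and 3.35 in WT, from 14.0, 13.3 and 14.7 to 3.56, 3.61 and 3.61 in GILZ KO, and from 14.6, 15.1 and 11.0 to 4.02, 4.97 and 3.45 in GILZ TG. No LPS library reached the lowest untreated one. The log2 fold changes were -1.18 ± 0.12, -1.33 ± 0.13 and -1.07 ± 0.12 (edgeR, adjusted p at most 3.4e-07).

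Smaller increases relative to the typical gene were called for Mmp9, Mmp12 and Timp1 in all 3 genotypes, in the same direction on both scales, although on log2(TPM + 1) limma called neither Mmp12 nor Timp1 in any genotype and Mmp9 in neither WT nor GILZ TG. Mmp9 rose by 1.05 ± 0.29 in WT (adjusted p = 0.00388), 1.43 ± 0.29 in GILZ KO (0.000337) and 0.83 ± 0.29 in GILZ TG (0.0163, edgeR), with TPM ratios of 1.35, 1.84 and 1.16. Its libraries varied widely within each genotype, as 320, 239.5 and 223 TPM in untreated WT, 116, 180.1 and 213 in GILZ KO and 353, 306 and 161 in GILZ TG, against 409, 344 and 299.99, then 252, 292 and 394, then 406, 329 and 214 with LPS. Only in GILZ KO were the untreated and LPS libraries fully separate, as for 83.7% of all genes there. Without GILZ TG untreated library 3 the change in GILZ TG was 0.54 (adjusted p = 0.0898), and without GILZ TG LPS library 1 it was 0.61 (0.095).

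Mmp12, macrophage elastase, rose by 0.77 ± 0.09, 0.82 ± 0.09 and 0.65 ± 0.09 (edgeR, adjusted p at most 9.08e-06), but its TPM was nearly the same at both treatments, with ratios of 1.12, 1.13 and 1.02 and overlapping groups in each genotype. On log2(TPM + 1), limma gave 0.16, 0.17 and 0.03 with adjusted p of 0.146, 0.133 and 0.823. Timp1, the secreted inhibitor of most metalloproteinases, rose by 0.96 ± 0.36 in WT, 1.26 ± 0.38 in GILZ KO and 1.26 ± 0.33 in GILZ TG (edgeR, adjusted p = 0.0246, 0.00682 and 0.00295). The WT call of Timp1 was lost when any 1 of 4 libraries was left out, with log2 fold changes of 0.80 to 0.94.

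Timp2, the inhibitor that also takes part in proMmp2 activation, fell in WT and GILZ KO. It stood at 87.6, 96.7 and 95.7 TPM in untreated WT and at 55.0, 50.7 and 53.95 with LPS, and in GILZ KO at 107, 89.4 and 86.2 and then 53.1, 52.9 and 53.0. In GILZ TG it was 114, 113 and 96.3 without treatment and 66.7, 84.4 and 57.0 with LPS. The groups did not overlap in any genotype, as for 81.2, 83.7 and 80.9% of all genes in WT, GILZ KO and GILZ TG. The log2 fold changes were -0.36 ± 0.08 and -0.38 ± 0.08 in WT and GILZ KO (adjusted p = 0.000538 and 0.000353) against -0.16 ± 0.08 in GILZ TG (0.0719, edgeR). For GILZ TG, where same-numbered untreated and LPS libraries deviated together, the fit with the replicate block gave -0.17 ± 0.06 (adjusted p = 0.018) for Timp2, 1.19 ± 0.15 (1.55e-05) for Timp3 and 0.69 ± 0.25 (0.0258) for Mmp2, so that 9 of the 10 members were called there against 72.3% of all genes.

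Mmp8 was called in no genotype. It was at 13.4, 19.0 and 18.1 TPM in untreated WT and 8.22, 12.1 and 14.8 with LPS, at 17.5, 17.8 and 14.5 and then 10.5, 10.4 and 9.14 in GILZ KO, and at 15.2, 11.1 and 18.3 and then 9.98, 8.33 and 14.5 in GILZ TG. Its log2 fold change was 0.10 ± 0.23, -0.10 ± 0.24 and 0.18 ± 0.23 on the edgeR scale, and the ratio of mean TPM was 0.696, 0.603 and 0.735, with separate groups in GILZ KO, as for 83.7% of all genes there. On log2(TPM + 1), limma called it lower in WT (-0.51, adjusted p = 0.0407) and GILZ KO (-0.67, 0.0093), where the median gene moved by -0.51 and -0.52. Mmp2 and Timp3 had too few reads for a firm statement outside GILZ TG, with 6 to 27 reads for Mmp2 and 11 to 68 for Timp3 in every WT and GILZ KO library. Mmp2 was called with LPS in GILZ KO (1.57 ± 0.63, adjusted p = 0.0354), from 0.35, 0.16 and 0.23 TPM to 0.40, 0.58 and 0.50, a call lost without any 1 of 4 libraries (log2 fold change 1.33 to 1.54). Timp3 gave 1.54 ± 0.81, 1.25 ± 0.99 and 1.14 ± 0.69 (adjusted p = 0.102, 0.279 and 0.157).

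**Figure D2:**
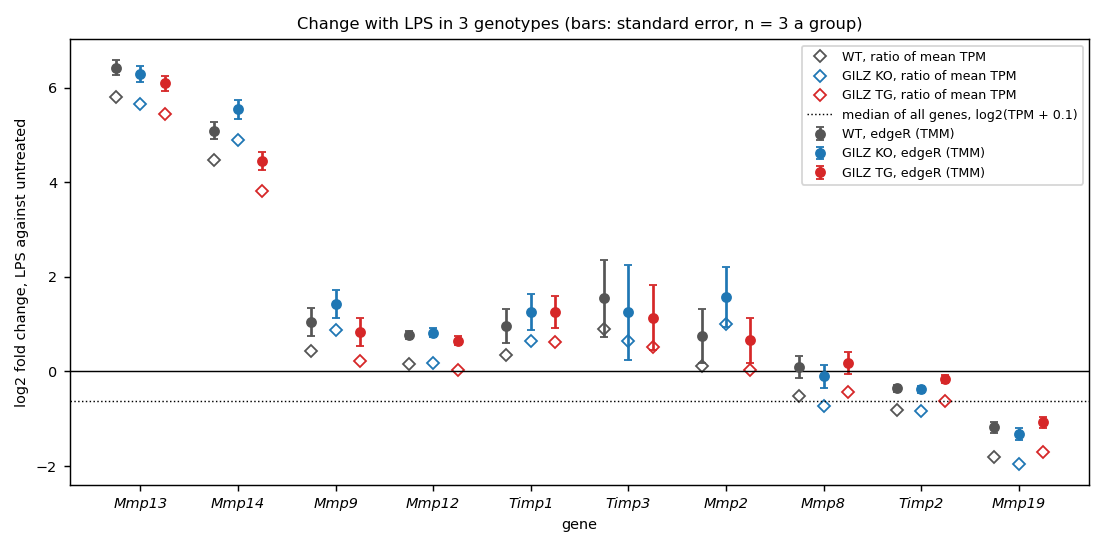
Log2 fold change of LPS against untreated cells (y axis) for the 10 members (x axis) in WT, GILZ KO and GILZ TG. Filled points are edgeR estimates with standard errors from 3 libraries a group, open diamonds the log2 ratio of mean TPM, and the dotted line the median of all genes on log2(TPM + 0.1). Mmp13 (6.09 to 6.43) and Mmp14 (4.45 to 5.54) stand above the rest, Mmp19 lies lowest, and the diamonds sit below the filled points.

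The LPS responses were then compared between genotypes, which asked whether GILZ changed the size of the response. No member was called, against 0.0152% of genes for GILZ KO and WT, 0.00759% for GILZ TG and WT and 0.121% for GILZ KO and GILZ TG (edgeR). At an unadjusted p under 0.05 the counts were 0, 1 and 1, and DESeq2 called 0, 0 and 1, against 0.159, 0.0152 and 0.995% of all genes. The single gene in question was Mmp14, whose increase was 1.09 ± 0.25 larger in GILZ KO than in GILZ TG on the log2 scale (edgeR, adjusted p = 0.107). DESeq2 gave 1.09 with an adjusted p of 0.00494, and without GILZ TG untreated library 3 edgeR gave 1.32 (0.00642). With library 3 as the only GILZ TG library it was 0.36 (0.743). With the replicate block, Mmp14 gave 1.08 (0.0557), and the member called was Mmp9, at 0.57 ± 0.11 (0.0405). Against WT, the Mmp14 response differed by 0.45 ± 0.26 in GILZ KO (adjusted p = 0.844) and by -0.64 ± 0.24 in GILZ TG (adjusted p = 1.0). The other members differed in response by between -0.41 and 0.91.

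**Figure D3:**
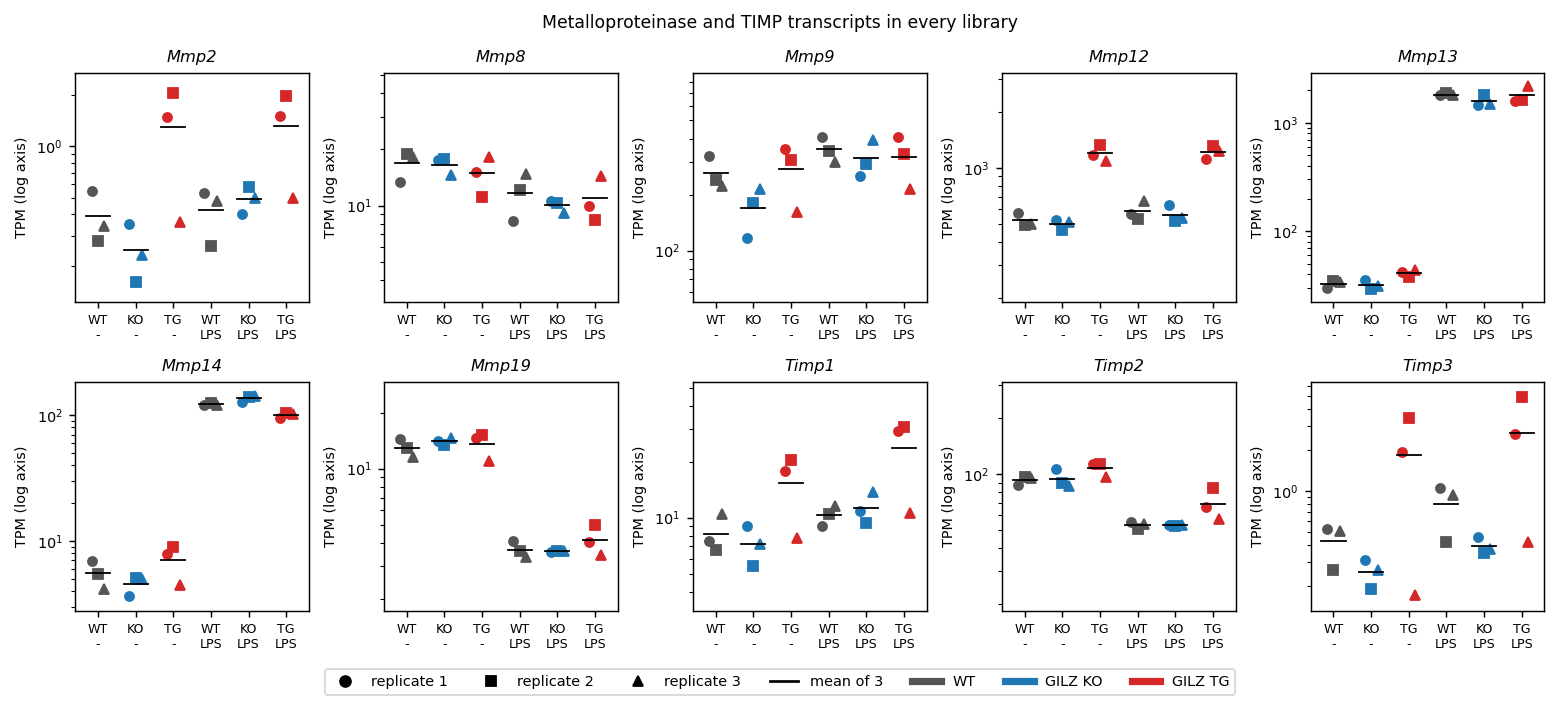
TPM of each member (y axes, logarithmic) in every library of the 6 groups (x axis: a dash for untreated, then LPS). Symbols give the replicate number, colours the genotype and black lines the mean of 3 libraries. Mmp12 is higher in all 3 GILZ TG libraries at both treatments, while Mmp2, Timp1 and Timp3 are high in GILZ TG libraries 1 and 2 and not in library 3.

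Mmp12 was higher in GILZ TG than in WT and GILZ KO macrophages at both treatments, and it was the only member called in all 4 of these contrasts. The gene lies at chromosome 9, 7344381 to 7369499, plus strand. In untreated cells its levels were 573, 496 and 501 TPM in WT, 522, 461 and 509.6 in GILZ KO, and 1175, 1332 and 1089 in GILZ TG. With LPS they were 565, 534 and 663 in WT, 629, 515 and 539 in GILZ KO, and 1115, 1312 and 1228 in GILZ TG. Every GILZ TG library lay above every library of the other genotypes, and WT and GILZ KO overlapped. Groups were separate for 14.9% of all genes untreated and 15.2% with LPS in GILZ TG against WT, and for 28.7% and 20.6% in GILZ KO against GILZ TG. The log2 fold change of GILZ TG against WT was 1.15 ± 0.08 untreated (2.22-fold, adjusted p = 0.000158) and 1.03 ± 0.10 with LPS (2.05-fold, 0.000833, edgeR). GILZ KO against GILZ TG gave -1.31 ± 0.08 (9.38e-05) and -1.12 ± 0.10 (0.000592), and GILZ KO against WT -0.16 ± 0.08 (0.544) and -0.08 ± 0.10 (0.825). By p-value, Mmp12 ranked 4 of 12621 and 6 of 12164 genes against WT and 2 and 4 in GILZ KO against GILZ TG. The contrasts share the GILZ TG libraries and are not separate evidence. With GILZ TG library 3 as the only library of its genotype, the one within the WT and GILZ KO range of stromal markers and assumed to vary like the other groups, the log2 fold changes against WT were 1.05 (adjusted p = 0.00272) and 1.1 (0.00476).

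**Figure D4:**
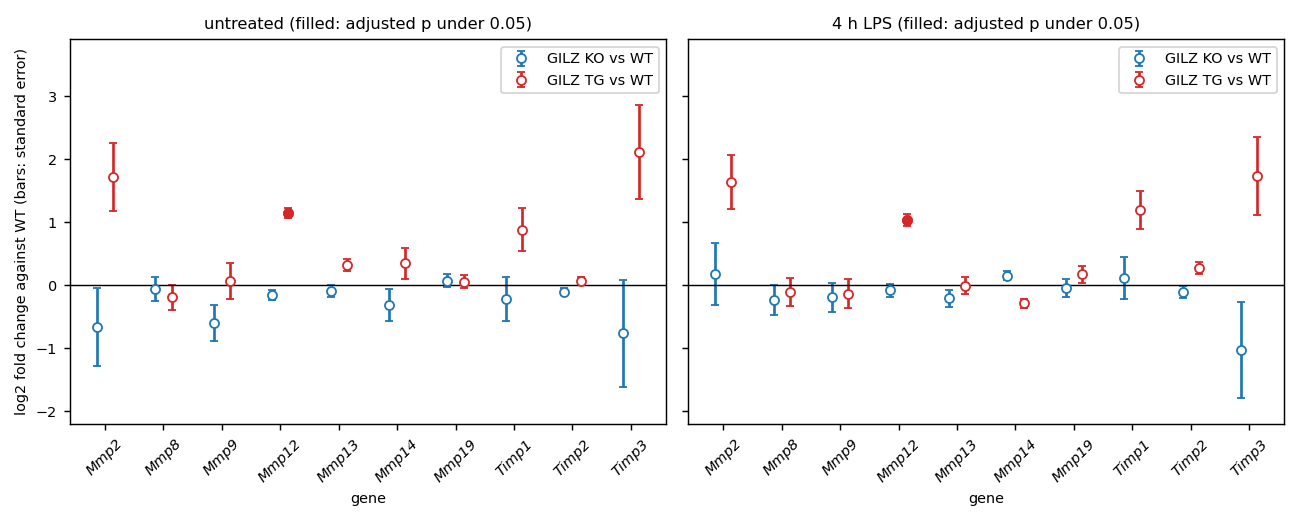
Log2 fold change against WT (y axis; bars, standard error) of the 10 members (x axis) in GILZ KO and GILZ TG, untreated on the left and with LPS on the right. Filled points have an adjusted p under 0.05. Mmp12 in GILZ TG, at 1.15 and 1.03, is the only filled point.

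In untreated cells, the question was what loss or gain of GILZ changed without a stimulus. GILZ KO against WT called 0 of the 10 members (0 at an unadjusted p under 0.05 and 0 with DESeq2), against 0.0951% of 12621 genes, and GILZ TG against WT called 1, Mmp12, against 0.642%. GILZ KO against GILZ TG called 3 members, all lower in GILZ KO, Mmp2, Mmp12 and Mmp13, against 4.94% of genes and 2.16% lower. Mmp13 differed by -0.41 ± 0.09 (adjusted p = 0.0402, edgeR), with no overlap between the 3 GILZ KO libraries (29.0 to 35.2 TPM) and the 3 GILZ TG libraries (38.1 to 43.8). The same gene was 0.32 ± 0.09 higher in GILZ TG than in WT (adjusted p = 0.162), again with separate groups. Groups were separate for 28.7% of all genes in GILZ KO against GILZ TG and for 14.9% in GILZ TG against WT. Leaving out any 1 of 5 libraries ended the Mmp13 call, with adjusted p of 0.0706 to 0.135.

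Mmp9, gelatinase B, gave the largest difference of GILZ KO against WT among members with more than 1 TPM. All 3 untreated GILZ KO libraries (116 to 213 TPM) lay below the WT libraries (223 to 320), and the log2 fold change was -0.60 ± 0.29 (edgeR, adjusted p = 0.537). In this contrast the groups were separate for 17.2% of all genes. With LPS the groups overlapped (-0.19 ± 0.23, adjusted p = 0.827).

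With LPS, GILZ KO against WT again called 0 members (0 at an unadjusted p under 0.05 and 0 with DESeq2), against 0.0822% of 12164 genes, and GILZ TG against WT called only Mmp12, against 0.46%. Tsc22d3 itself was not called in GILZ KO against WT with LPS (-0.69 ± 0.14, edgeR, adjusted p = 0.15). GILZ KO against GILZ TG called Mmp12 and Mmp14, against 2.6%. Mmp14 was 0.44 ± 0.07 higher in GILZ KO than in GILZ TG (1.36-fold, adjusted p = 0.0141, edgeR), the direction opposite to that of Mmp12. It was 0.15 ± 0.07 higher in GILZ KO than in WT (adjusted p = 0.534) and -0.29 ± 0.07 in GILZ TG against WT (0.115). Without any 1 of 4 libraries the adjusted p of the called difference was 0.0516 to 0.0716, and with GILZ TG library 3 alone it was 0.223 at a difference of 0.38.

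Mmp2, Timp1 and Timp3 had higher means in GILZ TG than in the other genotypes, through libraries 1 and 2. Timp3, an inhibitor that binds to the extracellular matrix, was at 1.94, 3.45 and 0.17 TPM in untreated GILZ TG libraries 1, 2 and 3 and at 2.65, 4.91 and 0.42 with LPS, against 0.19 to 1.05 TPM in all WT and GILZ KO libraries. Timp1 was at 17.7, 20.5 and 7.73 TPM and then 29.2, 30.7 and 10.6, against 5.52 to 13.7. Mmp2, gelatinase A, was at 1.48, 2.05 and 0.36 TPM and then 1.49, 1.96 and 0.50, against 0.16 to 0.58. GILZ TG library 3 lay within, or for untreated Timp3 below, the range of the other genotypes for all 3 genes. These are also the libraries with a summed stromal marker level of 143 to 209 TPM, against 17.6 and 18.2 in library 3, and the part of these cells in the result was not tested.

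Against WT, none of the 3 genes was called. The log2 fold changes without treatment and with LPS were 1.72 ± 0.54 and 1.64 ± 0.43 for Mmp2 (adjusted p = 0.191 and 0.124), 0.88 ± 0.33 and 1.20 ± 0.30 for Timp1 (0.272 and 0.121), and 2.12 ± 0.75 and 1.73 ± 0.61 for Timp3 (0.233 and 0.209, edgeR). In GILZ KO against GILZ TG, the threshold was passed by Mmp2 in untreated cells alone (-2.38 ± 0.58, adjusted p = 0.0465). GILZ TG library 3 decided these calls. Without it, 4 members were called in untreated GILZ TG against WT (5.16% of genes) and 6 with LPS (8.52%), and 8 and 6 members in GILZ KO against GILZ TG (10.1% and 11.2%). With it as the only GILZ TG library, Mmp2 differed from WT by -0.10, Timp1 by -0.09 and Timp3 by -1.31 in untreated cells, and only Mmp12 was called in each of the 4 contrasts.

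**Figure D5:**
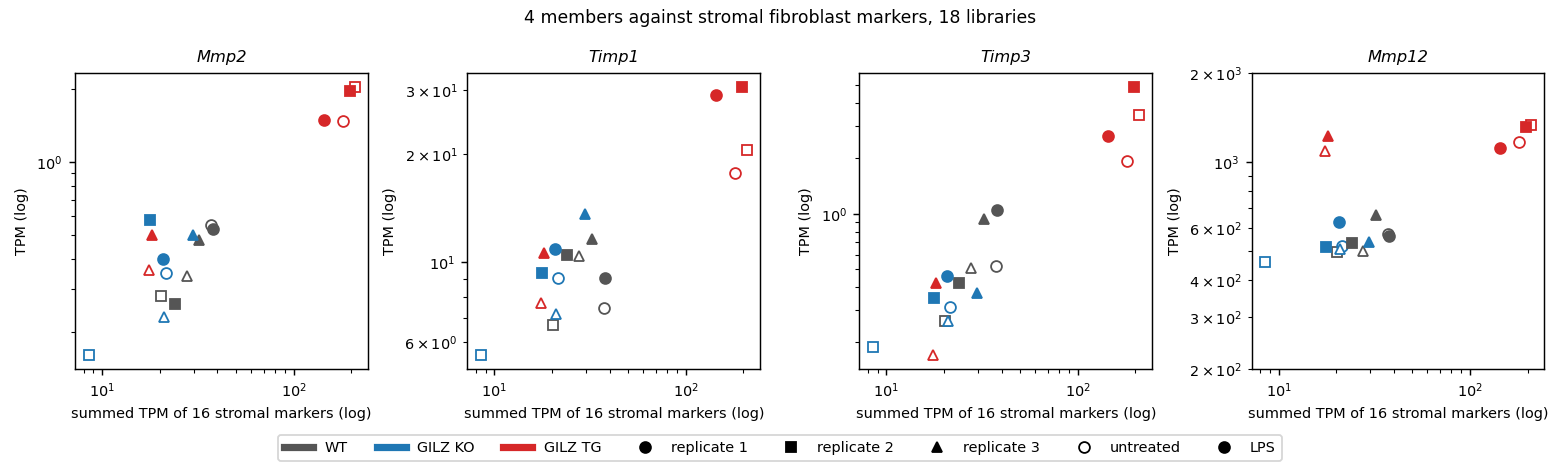
TPM of Mmp2, Timp1, Timp3 and Mmp12 (y axes, logarithmic) against the summed TPM of 16 stromal fibroblast markers (x axes, logarithmic) in the 18 libraries; colours give genotypes, symbols replicates, open symbols untreated and filled symbols LPS. GILZ TG libraries 1 and 2 lie at 143 to 209 TPM on the x axis with high Mmp2, Timp1 and Timp3, while Mmp12 is above 1000 TPM in all GILZ TG libraries, library 3 included.

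With LPS, Timp2 was also highest in GILZ TG libraries 1 and 2. Unlike for Mmp2, Timp1 and Timp3, library 3 lay above the other genotypes too. The GILZ TG levels of Timp2 (66.7, 84.4 and 57.0 TPM) did not overlap with WT (50.7 to 55.0) or GILZ KO (52.9 to 53.1), as for 15.2% and 20.6% of all genes. GILZ KO against GILZ TG gave -0.37 ± 0.09 (edgeR, adjusted p = 0.0587, and DESeq2, adjusted p = 0.0129). GILZ TG against WT was 0.27 ± 0.09 (0.196). Mmp8, Mmp9 and Mmp19 were called in no genotype contrast, with log2 fold changes from -0.68 to 0.17 over all 6.

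The genes that varied most like each member across the 18 libraries, after removing the mean of each treatment, are given as a description. They depend on the measure, since with Spearman's rank correlation only 2 of 9 members kept 2 or more of their 3 genes. Libraries of one group share their genotype, so the correlations are not independent. For Mmp12 they were Kctd17 (r = 0.957), Parvg (0.955) and Axl (0.949), the last a TAM receptor for dead cells. For Timp1 they were Tagln (0.960), Acta2 (0.952) and Sparc (0.946), and for Timp3 Bgn (0.964), Acta2 (0.964) and Col1a2 (0.960), which are contractile and matrix genes of stromal cells. Mmp19 went most closely with Actn1 (0.924), Itpr3 (0.912) and Plod1 (0.900), and Timp2 with Cnpy4 (0.923), Alkbh6 (0.872) and Ighm (0.869). For Mmp8, Mmp9, Mmp13 and Mmp14 the closest genes, Ptgs1, Xylt2, Mrpl24 and Cp, reached 0.858, 0.844, 0.817 and 0.808.

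Of 17 other metalloproteinase and TIMP genes, 12 were at or below 1 TPM in all 18 libraries and 3 of these at 0 throughout. With LPS, Mmp3, Mmp10, Mmp25 and Mmp28 were called higher in each genotype, and Mmp11 lower in GILZ KO and GILZ TG. Of the 17, 8 entered this test, among them Mmp3 and Mmp25, which passed the filter on low counts through their LPS libraries and had to be higher there, so no share is read from it. Mmp10 (stromelysin 2), which lies between Mmp12 and Mmp8 in the cluster, went from 2.28 to 5.26 TPM without treatment to 10.1 to 16.8 with LPS, a log2 fold change of 2.50 to 2.86. Mmp25, a membrane-anchored enzyme also called leukolysin, was at 0.05 to 0.15 TPM (3 to 7 reads) in untreated libraries and at 4.89 to 7.74 TPM with LPS. Mmp27 alone differed between genotypes, at 6.30 to 6.74 TPM in untreated GILZ KO and 3.03 to 4.26 in GILZ TG (log2 fold change 0.82 ± 0.15, edgeR, adjusted p = 0.02). Mmp23 was at 1.25 to 2.66 TPM in GILZ TG libraries 1 and 2 and at no more than 0.58 elsewhere.

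Proteases and inhibitors that act beside the metalloproteinases were taken as lists. In the list of plasminogen activation and other regulators, 13, 14 and 13 of 16 tested genes were called in WT, GILZ KO and GILZ TG, 11 of them higher in each, with median log2 fold changes of 1.54, 1.42 and 1.51. Over all genes 68.6%, 68.5% and 68.7% were called in these comparisons, with a median of -0.02. The fit of untreated libraries tested 15 genes of this list and that of LPS libraries 16. Not every gene thus passed the filter without its LPS libraries, so no share is read from these counts. Serpinb2, an inhibitor of plasminogen activators, rose by 6.16 in WT, Lcn2, which binds Mmp9, by 4.68, and Cav1, a caveolae protein, by 3.87. Plau, the urokinase that activates plasmin and through it several metalloproteinases, had lower levels in GILZ KO than GILZ TG cells at both treatments (-0.85 ± 0.13, adjusted p = 0.012; -1.43 ± 0.23, adjusted p = 0.0141). Its GILZ TG libraries read 916, 958 and 662 TPM untreated and 151, 159.97 and 72.9 with LPS, against 467 to 491 and 44.9 to 52.1 in GILZ KO, so all 3 were higher, libraries 1 and 2 most. Cav1 was higher in GILZ KO with LPS (0.67 ± 0.14, adjusted p = 0.0311).

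Among ADAM and ADAMTS proteases, relatives of the metalloproteinases, 5, 7 and 6 of 14 tested were called with LPS, against 68.5 to 68.7% of all genes. The fit of untreated libraries tested 11 of this list and that of LPS libraries 12, so no share is read here either. The aggrecanase Adamts4 rose by 7.0 to 7.56 on the log2 scale and Adam17, which releases TNF from the cell surface, by 1.24 to 1.35, while Adamts10 fell by 1.65 to 1.83. Adam10 and Adam17 were slightly higher in untreated GILZ KO than in GILZ TG (0.31 ± 0.06 and 0.28 ± 0.05), and Adamts2 and Adam19 lower (-3.32 ± 0.75 and -2.76 ± 0.62). The last 2 were high in GILZ TG libraries 1 and 2 only, Adamts2 at 2.11, 2.87 and 0.18 TPM in libraries 1, 2 and 3 and Adam19 at 1.08, 0.92 and 0.18, as were the stromal markers, whose part in the result was not tested. Of 16 matrix proteins tested that metalloproteinases cleave, 6, 5 and 6 were higher with LPS and none lower, against 33.2 to 33.6% of all genes higher, led by the proteoglycan Vcan (4.32 to 5.15). In GILZ KO against GILZ TG, 5 were lower untreated (Col1a1, Col1a2, Col3a1, Col5a1 and Sparc, -3.27 to -3.04) and 3 with LPS (Col1a1, Col5a1 and Tnc), against 2.16% and 1.38% of all genes. The 5 genes called untreated are also in the list of stromal fibroblast markers. These counts thus partly repeat the stromal difference of GILZ TG libraries 1 and 2, and the part of stromal cells in them was not tested. DESeq2 called 13 and 10 of the 16 lower, against 4.44% and 3.35% of all genes. Col1a1 stood at 44.2 and 51.3 TPM in untreated GILZ TG libraries 1 and 2 and at 4.98 in library 3, as for Timp3.

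Each TIMP member overlaps another gene. Timp1 (chromosome X, 20870166 to 20874735, plus strand) lies inside Syn1 on the opposite strand without shared exon positions, and Syn1 was at 9.72 to 24.3 TPM. Timp3 (chromosome 10, 86300372 to 86349506, plus strand) lies inside Syn3, with 1 overlapping exon pair on opposite strands, and Syn3 was at no more than 0.06 TPM. Timp2 (chromosome 11, 118301069 to 118355740, minus strand) holds Cep295nl on its own strand, at no more than 0.53 TPM. The library kit kept strand, but the strand setting of the counting is not given in the sources used here. Mmp12 and Mmp1b overlap at their 3′ ends on opposite strands, and Mmp1b was at no more than 0.29 TPM.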

How the data were processed

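Poly(A) RNA of BMMs was sequenced in 18 libraries, 3 per genotype and treatment. Per the study's methods and the labels, the authors checked reads with FastQC 0.11.2, processed them with the grape-nf pipeline and mapped them to GRCm38/mm10. The deposited tables give expected counts, the estimated reads per gene without normalization, and TPM as the authors scaled it for transcript length and library size; the quantifier and annotation release are not given in the sources used here. The deposited comparison tables of DESeq2 1.40.2 served for gene symbols only, and their fold changes and p-values were not used.

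Expected counts were rounded, filtered with filterByExpr and tested with edgeR 4.0.16 (TMM, quasi-likelihood, Benjamini-Hochberg over all genes, threshold 0.05) in R 4.3.3. Genotypes were compared within the 9 libraries of a treatment, and LPS effects and their differences in 1 fit of 18 libraries. Standard errors are |log2 fold change| divided by the root of F. Alternatives were DESeq2 1.42.0, its size factors, no filter, at least 10 counts, limma 3.58.1 on log2(TPM + 1) and log2(TPM + 0.1), a replicate block, other sets of libraries and leaving out each library; scripts were tested on simulated data. Deviations from group means of same-numbered untreated and LPS libraries correlated at 0.266, 0.397 and 0.605 in GILZ TG, while in WT and GILZ KO not every pair passed 0.1. The reported fits had no replicate block in any genotype, and values with the block are given as an alternative. Positions came from GENCODE (GRCm38), and promoter windows and motif matches from RefSeq. Gene lists were other family genes, ADAM and ADAMTS proteases, plasminogen activation and other regulators, matrix proteins, genes overlapping TIMPs and markers of 8 cell types; named genes were the members, called family genes, up to 4 called genes of each other list and comparison with the largest change, and for members of at least 1 TPM the 3 most correlated of 9423 genes of at least 5 TPM. The members and lists were chosen with earlier results of these data known. Values of some list genes are not reported here.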

Additional observations from a re-analysis of the deposited data

How the results depend on the processing

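The depth limits Mmp2 and Timp3, which had under 70 reads in each WT and GILZ KO library. Single values of members were followed only in comparisons where the member was called under some setting. Of these, 359 called ones stayed called with their direction under the alternatives and 53 lost the call. Of those not called as reported, 357 stayed so, 58 became called and 12 changed sign. Values called under no setting are not in these counts. With GILZ TG library 3 as the only one of its genotype, GILZ TG against WT was -0.10 for Mmp2, -0.09 for Timp1 and -1.31 for Timp3 untreated and -1.06 for Timp3 with LPS, and GILZ KO against GILZ TG was 0.12 for Mmp9 and 0.54 for Timp3 untreated and 0.01 for Timp1 and 0.03 for Timp3 with LPS. For Mmp8 in WT, LPS against untreated was -0.51 on log2(TPM + 1), -0.54 on log2(TPM + 0.1), and -0.09 to 0.30 leaving out single libraries, the lowest value without WT untreated replicate 1 or WT LPS replicate 3. The count of members called in GILZ KO against GILZ TG untreated was 3, against 4.94% of all genes. It was 5 with DESeq2 (against 9.65%) or no filter (4.34%), 1 with limma at either pseudocount, and 1 to 8 when leaving out single libraries. With LPS this count was 2 (against 2.6% of all genes), but 5 with DESeq2 (against 5.88%), 6 without a filter (4.11%) and 1 to 6 leaving out single libraries. GILZ TG against WT called 1 (against 0.642% of all genes untreated and 0.46% with LPS), with 1 to 4 untreated and 1 to 6 with LPS over left-out libraries. With LPS this contrast called 4 with DESeq2 (against 2.25%) and 5 without a filter (2.06%). For the LPS response of GILZ KO against GILZ TG the count was 0 (against 0.121% of all genes), but 1 with DESeq2 (against 0.995%), no filter (0.292%) or the replicate block (1.09%), and 0 to 1 over left-out libraries. The causes were not tested. Mmp12 in GILZ TG against WT was 1.05 to 1.20 untreated and 0.97 to 1.12 with LPS over 16 alternatives, called in each.

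Over all genes, calls ranged from 16 to 665 (81 as reported) in GILZ TG against WT untreated and from 15 to 1067 (56) with LPS, from 34 to 1306 (623) and 24 to 1403 (316) in GILZ KO against GILZ TG, and from 5 to 79 (12) and 4 to 100 (10) in GILZ KO against WT. For the LPS responses they ranged from 1 to 21 (2), 0 to 8 (1) and 0 to 144 (16).

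As for pairing, 2 of 18 same-numbered pairs across genotypes and 4 of 9 untreated and LPS pairs correlated above 0.1, 3 of these in GILZ TG. With the replicate block, 9 members were called with LPS in each genotype, against 72.3, 71.5 and 72.3% of all genes in WT, GILZ KO and GILZ TG. Timp3 (adjusted p = 6.53e-06) and Mmp2 (0.0483) were added in WT and Timp3 (0.0004) in GILZ KO. Mmp9 was the member called for the response of GILZ KO against GILZ TG (0.57, adjusted p = 0.0405). In the 6 genotype comparisons the block left the count of members called as it was.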
